A study of Rattus norvegicus with 6 samples.

Results

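The genes described here encode 8 proteins that act on alkylated DNA: Mgmt, Alkbh2 and Alkbh3 of direct reversal, Mpg, Parp1 and Xrcc1 of base excision repair, and Msh6 and Pms2 of mismatch repair. They were chosen by symbol for these roles, and each symbol occurred on 1 of the 32545 rows of the table. All 8 averaged at least 1 FPKM, the minimum set for testing, as did 13631 genes in all. FPKM counts sequenced fragments relative to gene length and library depth, so that levels can be compared between genes.

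Expression was measured in 6 mammary tumors of female Sprague-Dawley rats, 3 of the DATS group and 3 of the vehicle group. Every rat had received N-methyl-N-nitrosourea (MNU), an alkylating carcinogen, intraperitoneally at 21 days of age and at a dose of 50 mg/kg. The DATS group was then gavaged with diallyl trisulfide (DATS), a sulfur compound made from crushed garlic, at 50 mg/kg in corn oil, and the vehicle group with 100 µL of corn oil. Gavage began 1 week after MNU and was repeated 5 times a week for 10 weeks. Both groups thus carried tumors raised with the same alkylating agent. The labels give neither the rat of each tumor nor any pooling, so p-values measure the spread between these tumors, which may be technical.

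MNU transfers methyl groups to DNA bases. Methyl groups on ring nitrogens of purines are removed mainly by base excision repair, in which a glycosylase cuts out the base and a ligation complex closes the gap. The methyl group on the oxygen of guanine is the most mutagenic of these lesions, because the altered base pairs with thymine, and it is taken off by a suicide protein that is used up in the reaction. Where it persists through replication, mismatch repair recognises the mispair, and its repeated excision is a route by which methylating agents kill cells.

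The comparison asked which transcripts differ in tumors of rats given DATS, and no gene passed its threshold. Of the 13631 genes tested, 0.0% had a Benjamini-Hochberg adjusted p under 0.05 in limma, 5.85% had an unadjusted p under 0.05, and limma-voom on the recovered reads called 0 genes with 5.16% at an unadjusted p under 0.05. Among the 8 repair genes 0 passed either threshold in either tool. Differences are given as DATS minus vehicle of log2(FPKM + 1), a scale that compresses the differences of low genes. By this measure 6 of the 8 were higher in DATS tumors and 2 were lower, with a median difference of 0.23, and 49.2% of all genes tested were higher, with a median of -0.0048. The 95% confidence intervals of the 8 differences all held 0 and reached 0.39 to 0.56 to either side. They are not adjusted for the 13631 genes tested. Differences within those limits were thus not detectable with 3 tumors a group, and the adjusted threshold asks for larger ones. The lowest adjusted p among the 8 was 0.819.

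The depth recovered from the table was 13531587 to 16868371 reads per tumor. Summed over all genes, the deposited FPKM were 662528 to 710096 in DATS tumors and 566304 to 656017 in vehicle tumors. Each DATS total was thus above each vehicle total. The 8 genes rested on 96 to 1805 reads per tumor, which gave a counting error of 2.35% to 10.2%, whereas the coefficient of variation over the 6 tumors was 11.8% to 31.3%. Counting error was therefore the smaller part of the spread of each gene. Luminal epithelial markers (Krt8, Krt18, Krt19, Epcam, Cdh1 and Elf3) were all found, with none at 0 in any tumor, and their summed level was 2057 to 3520 FPKM in DATS tumors and 1741 to 2221 FPKM in vehicle tumors. Vehicle tumor 1 stood apart by its skeletal muscle genes (Acta1, Ckm, Mylpf and Tnnt3), at a summed 1158 FPKM against 40.6 FPKM or less elsewhere, and vehicle tumor 2 by its T and NK cell genes, at 363.1 FPKM against 66.1 to 200.02 FPKM in DATS tumors and 74.2 and 87.3 FPKM in the other vehicle tumors. DATS tumors differed in composition too. Myoepithelial genes (Krt5, Krt14, Acta2, Myh11 and Tp63) summed to 1039 to 2302 FPKM in DATS and 871 to 1671 FPKM in vehicle tumors. Adipocyte genes (Adipoq, Plin1 and Fabp4) summed to 8.11 to 71.6 FPKM in DATS and 15.96 to 20.04 FPKM in vehicle tumors.

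In order of their mean over the 6 tumors, the levels were 41.3 FPKM for Xrcc1, 29.4 for Alkbh3, 27.5 for Parp1, 19.9 for Mgmt, 15.6 for Mpg, 11.8 for Msh6, 9.66 for Pms2 and 8.79 for Alkbh2. The ranges of all neighbours in this order overlapped. Xrcc1, at 32.5 FPKM or more, lay above every value of Parp1, Mgmt, Mpg, Msh6, Pms2 and Alkbh2. On average 81.6% of the genes tested had a level as low as or lower than Xrcc1, and 42.2% one as low as or lower than Alkbh2. Tumors differed most for Mpg, whose highest level was 2.13 times its lowest, and least for Parp1, at 1.33 times.

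**Figure D1:**
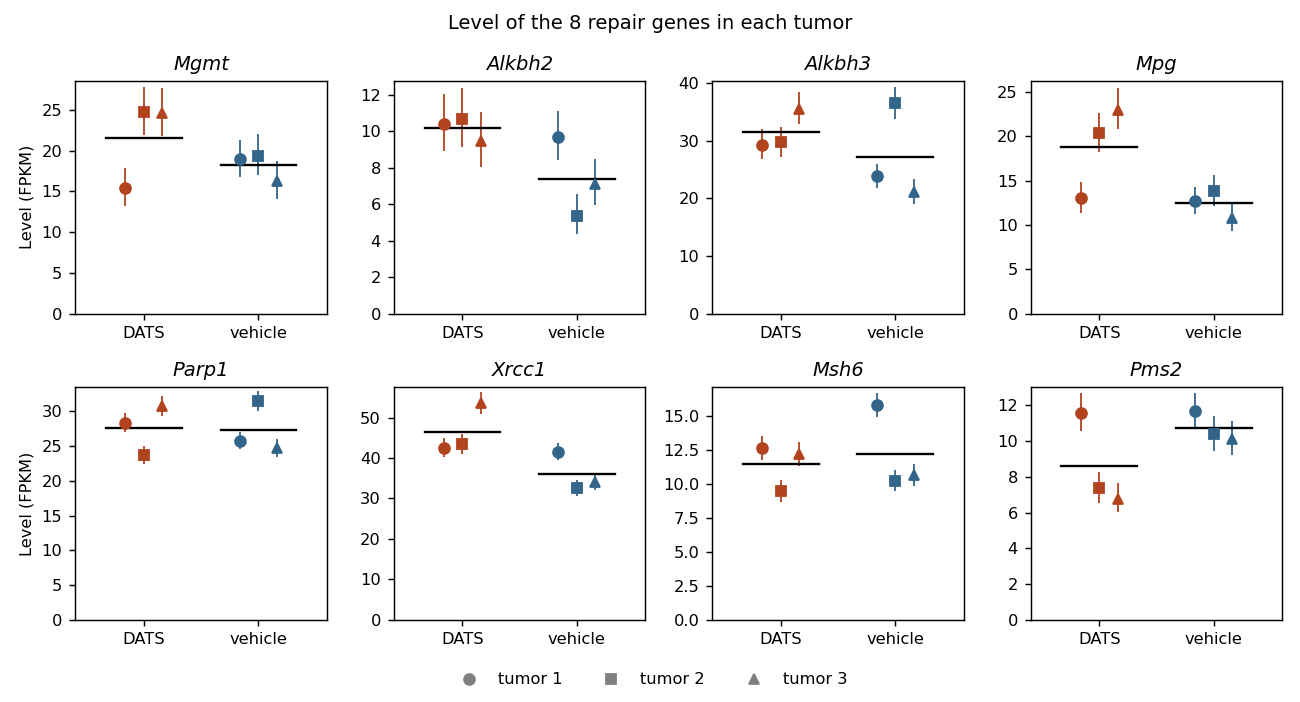
FPKM of each of the 8 genes (vertical axes, from 0) in the 3 DATS tumors, left, and the 3 vehicle tumors, right. Symbols mark tumors 1, 2 and 3 of each group, vertical bars are exact Poisson 95% intervals of the recovered reads and cover counting error only, and horizontal lines are group means. Only for Xrcc1 do all DATS tumors lie above all vehicle tumors, and there the nearest values are 42.5 FPKM in DATS tumor 1 and 41.6 FPKM in vehicle tumor 1.

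Among the genes of direct reversal, Mgmt encodes O6-methylguanine-DNA methyltransferase, the suicide protein that takes the methyl group from the oxygen of guanine. The level of Mgmt was 15.4, 24.7 and 24.6 FPKM in DATS tumors 1, 2 and 3, against 18.9, 19.4 and 16.2 FPKM in vehicle tumors 1, 2 and 3. DATS tumors 2 and 3 held the highest levels and DATS tumor 1 the lowest, so the groups overlapped. Its means were 21.6 ± 5.31 FPKM in DATS tumors and 18.2 ± 1.70 FPKM in vehicle tumors (SD, n = 3 each), a log2 difference of 0.21 ± 0.21 (SE; limma adjusted p = 0.881). The difference was 0.42 without DATS tumor 1, and 0.10 without DATS tumor 2 or without DATS tumor 3. With the tumors rescaled to equal FPKM totals, where all genes had a median of -0.16, it was 0.039, or 0.20 above that median.

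Alkbh2 and Alkbh3 encode dioxygenases of the AlkB family, which oxidise methyl groups off the base-pairing side of adenine and cytosine. Alkbh2 acts mainly on double-stranded DNA and Alkbh3 on single-stranded DNA and on RNA. Alkbh2 had levels of 10.4, 10.7 and 9.45 FPKM in the DATS tumors, against 9.71, 5.38 and 7.14 FPKM in the vehicle tumors. The DATS tumors lay within a narrow range, and of the vehicle tumors only tumor 1 reached it. The means were 10.2 ± 0.637 FPKM in DATS and 7.41 ± 2.18 FPKM in vehicle tumors (SD, n = 3 each), and the log2 difference was 0.44 ± 0.22 (SE; limma adjusted p = 0.819). The low value of vehicle tumor 2 rested on 96 reads. Without that tumor the difference was 0.26, and without vehicle tumor 1 it was 0.63. Vehicle tumor 2 also had the lowest luminal marker sum and the highest T and NK cell sum, and their part in this difference was not tested. In bulk tumors, fewer cells of a type and less RNA per cell cannot be told apart.

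Alkbh3 had the widest spread within the vehicle group. It had levels of 29.3, 29.8 and 35.6 FPKM in the DATS tumors, against 23.9, 36.5 and 21.1 FPKM in the vehicle tumors. Vehicle tumor 2, the lowest for Alkbh2, was the highest of all 6 for Alkbh3. The log2 difference was 0.24 ± 0.23 (SE; limma adjusted p = 0.871), and it was 0.47 without vehicle tumor 2 and 0.087 without vehicle tumor 3. The 2 AlkB genes therefore did not share their order across tumors.

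Mpg encodes the alkyladenine DNA glycosylase, which cuts out bases methylated on ring nitrogens and so starts their base excision repair. Mpg had levels of 13.0, 20.4 and 23.0 FPKM in the DATS tumors, against 12.7, 13.8 and 10.8 FPKM in the vehicle tumors. DATS tumors 2 and 3 lay above every vehicle tumor, and DATS tumor 1 lay inside the vehicle range. The means were 18.8 ± 5.19 FPKM in DATS and 12.4 ± 1.51 FPKM in vehicle tumors (SD, n = 3 each). The log2 difference of 0.53 ± 0.23 (SE) was the largest of the 8, with a 95% interval of -0.032 to 1.09 and a limma adjusted p of 0.819. It ranged from 0.37 without DATS tumor 3 to 0.76 without DATS tumor 1 and remained positive in every fit with a tumor left out.

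Parp1 and Xrcc1 act after the base is gone. Parp1 encodes the poly(ADP-ribose) polymerase that senses the strand break, and Xrcc1 the scaffold that gathers the polymerase and ligase there. Parp1 had levels of 28.4, 23.7 and 30.8 FPKM in the DATS tumors, against 25.7, 31.5 and 24.7 FPKM in the vehicle tumors. Its groups covered almost the same range, with a log2 difference of 0.016 ± 0.16 (SE; 95% interval -0.38 to 0.41; limma adjusted p = 0.992). Its sign turned with equal totals (-0.16) and with quantile normalization (-0.036). With equal totals all genes had a median of -0.16, and Parp1 lay 0.0045 above that median. The sign also turned when DATS tumor 1 (-0.0069), DATS tumor 3 (-0.063), vehicle tumor 1 (-0.021) or vehicle tumor 3 (-0.050) was left out.

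Xrcc1 was the only one of the 8 whose groups did not overlap; all DATS tumors were above all vehicle tumors for 6.72% of the genes tested. It had levels of 42.5, 43.5 and 53.5 FPKM in the DATS tumors, against 41.6, 32.5 and 34.2 FPKM in the vehicle tumors. DATS tumor 1 and vehicle tumor 1, which rested on 1234 and 1522 reads, were within counting error of each other. The means were 46.5 ± 6.09 FPKM in DATS and 36.1 ± 4.81 FPKM in vehicle tumors (SD, n = 3 each), and the log2 difference was 0.36 ± 0.16 (SE; limma adjusted p = 0.819). The exact two-sided permutation p was 0.1, the smallest that 3 tumors against 3 allow. With equal totals the groups overlapped. Rescaled FPKM were 38.9, 40.5 and 52.5 in DATS tumors and 44.4, 32.2 and 39.2 in vehicle tumors. The difference was then 0.18, or 0.34 above the median of all genes (-0.16). As deposited, it was 0.36 above the median of all genes, which was then -0.0048. The luminal marker sum was likewise highest in DATS tumor 3 and lowest in vehicle tumor 2. In DATS tumor 1, however, that sum (2056.88 FPKM) was below those of vehicle tumors 1 and 3 (2220.5 and 2058.36 FPKM). Its part in the difference was not tested.

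Msh6 and Pms2 belong to mismatch repair. Msh6 encodes the subunit with which MutS-alpha recognises base mismatches, the pairing of methylated guanine with thymine included, and Pms2 the subunit that holds the nicking activity of MutL-alpha. Msh6 had levels of 12.6, 9.43 and 12.2 FPKM in the DATS tumors, against 15.8, 10.2 and 10.6 FPKM in the vehicle tumors. Vehicle tumor 1 was the highest and DATS tumor 2 the lowest, and of the other 4 tumors DATS tumors 1 and 3 lay above vehicle tumors 2 and 3. The log2 difference was -0.076 ± 0.21 (SE; limma adjusted p = 0.966), and its sign turned without vehicle tumor 1 (0.11) and without DATS tumor 2 (0.044). The summed level of 12 proliferation genes was also highest in vehicle tumor 1, at 331.1 FPKM, and was 149 to 232.3 FPKM in DATS tumors and 112.9 and 204.4 FPKM in the other vehicle tumors. Its part in the level of Msh6 was not tested. On RefSeq assembly GRCr8 the span of Msh6 overlaps that of Fbxo11, and the span of Pms2 that of a small nucleolar RNA gene. With strand handling not given in the sources used here, reads of such overlaps could not be separated.

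Pms2 was the lowest of the 8 by its difference. It had levels of 11.6, 7.37 and 6.78 FPKM in the DATS tumors, against 11.7, 10.4 and 10.1 FPKM in the vehicle tumors. DATS tumors 2 and 3 lay below every vehicle tumor, and DATS tumor 1 was level with vehicle tumor 1. The means were 8.58 ± 2.62 FPKM in DATS and 10.7 ± 0.837 FPKM in vehicle tumors (SD, n = 3 each). The log2 difference was -0.32 ± 0.22 (SE; limma adjusted p = 0.851), and it was -0.54 without DATS tumor 1 and -0.19 without DATS tumor 3.

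**Figure D2:**
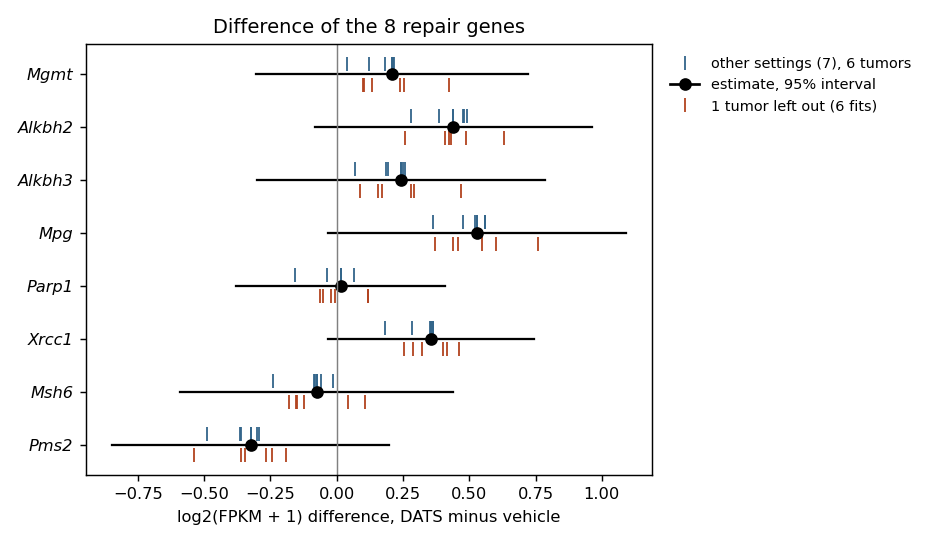
Difference of each of the 8 genes between DATS and vehicle tumors on the log2(FPKM + 1) scale (horizontal axis). Black points with lines are estimates with 95% intervals, blue ticks above them the 7 other settings with all 6 tumors and red ticks below them the 6 fits that leave out 1 tumor. All 8 black intervals hold 0, and only for Parp1 and Msh6 do ticks lie on both sides of 0.

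For Mgmt, Mpg and Pms2, the deviations of single tumors from the mean of all 6 set DATS tumor 1 apart from DATS tumors 2 and 3. In DATS tumors 2 and 3 Mgmt was 0.32 and 0.31 above its mean on the log2 scale, and Mpg 0.41 and 0.58 above, while Pms2 was at -0.32 and -0.43. In DATS tumor 1 the signs were the opposite for these 3 genes, at -0.32 for Mgmt, -0.20 for Mpg and 0.27 for Pms2. The other genes did not share this pattern. Alkbh2, Alkbh3 and Xrcc1 were above their means in every DATS tumor. Of the DATS tumors, only tumor 2 was below the mean for Msh6 and Parp1. Of the length trends of single tumors, those of vehicle tumor 3 (slope 0.081 per doubling of gene length) and DATS tumor 3 (-0.064) were the steepest. The implied lengths of Mgmt and Mpg were 825 and 1214 bp, and those of Msh6 and Pms2 4390 and 2926 bp. With the length trend of each tumor removed, a setting chosen after the data had been seen, the differences were 0.12 for Mgmt, 0.48 for Mpg, -0.015 for Msh6 and -0.30 for Pms2. The level of Mgmt over that of Msh6, a ratio of FPKM values, was 1.22, 2.62 and 2.02 in DATS tumors and 1.199, 1.90 and 1.53 in vehicle tumors, with overlapping groups.

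**Figure D3:**
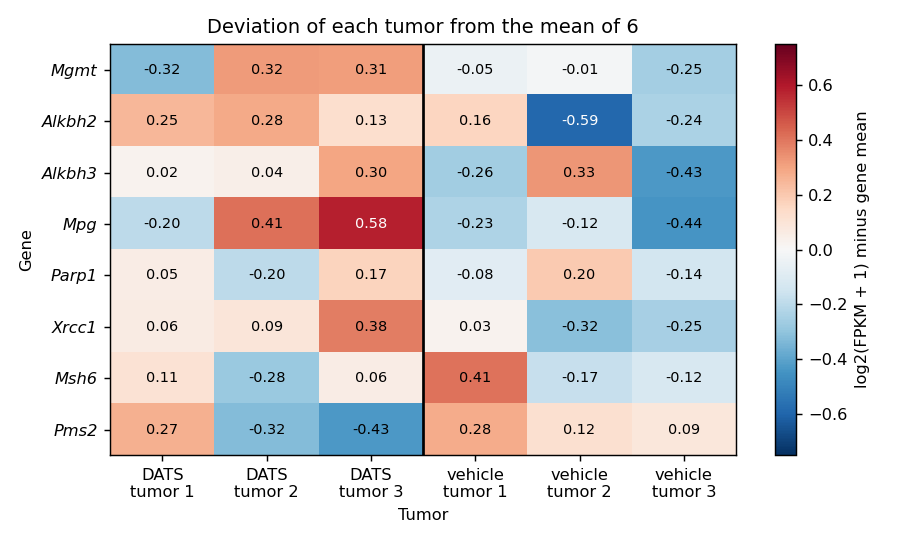
Level of each of the 8 genes (rows) in each tumor (columns, DATS tumors left of the black line and vehicle tumors right of it) as log2(FPKM + 1) minus the gene's mean over the 6 tumors, red above and blue below the mean. Mgmt and Mpg are red and Pms2 is blue in DATS tumors 2 and 3, with the opposite colours in DATS tumor 1. The other genes do not share this pattern.

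Mgmt and Mpg were the closest of the 28 pairs of these genes in their course over the tumors. The measure was the root mean square difference between profiles of log2(FPKM + 1), each centred on its own mean, and it was 0.17 for this pair and 0.63 for Mpg and Pms2, the most distant pair. The sequences before both starts are shown because these 2 genes ran most alike; they were taken from RefSeq promoter windows on GRCr8, which held all 8 genes, and were ended before the annotated gene span. They are written 5′ to 3′ on the strand of the gene, plus for Mgmt (chr1:201140582-201140831) and minus for Mpg (chr10:15906982-15907174). Capitals mark the GC box, GGGCGG on either strand, a binding site of Sp1-type factors.
Mgmt: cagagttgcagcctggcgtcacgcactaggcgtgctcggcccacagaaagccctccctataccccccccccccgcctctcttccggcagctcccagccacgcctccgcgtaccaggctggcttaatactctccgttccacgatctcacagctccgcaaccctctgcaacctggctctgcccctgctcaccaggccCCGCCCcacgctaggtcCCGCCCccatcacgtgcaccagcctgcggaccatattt
Mpg: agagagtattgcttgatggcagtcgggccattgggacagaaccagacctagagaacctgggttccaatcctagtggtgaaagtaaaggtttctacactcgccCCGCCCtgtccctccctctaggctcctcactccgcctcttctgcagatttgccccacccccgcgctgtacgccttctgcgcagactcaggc
The stretch of Mgmt held 2 GC boxes and 17 CpG dinucleotides in 250 bases, and that of Mpg 1 GC box and 8 CpG in 193 bases. Within the full windows of 300 bases, from 250 before to 50 after a start, 6 of the 8 genes had a GC box, as did 33.1% of all 33469 windows. Those windows were limited neither to the genes tested nor to windows rich in CpG. The CCAAT box (CCAAT) was in 4 of the 8 and in 37.5% of all windows. The TATA box (TATAAA) was in 0 of the 8 and in 14.2%, the E-box (CACGTG) in 1 of the 8, Mgmt, and in 6.42%. The antioxidant response element (TGACNNNGC) was in 2 of the 8, Alkbh2 and Pms2, and in 12.1% of windows, and the cAMP response element (TGACGTCA) in 0 of the 8 and in 1.83%. Both strands were searched, and no matches of different motifs overlapped in the 8 genes. All 8 windows held more CpG than the median of 7 in all windows, from 16 in Alkbh2 to 38 in Msh6. Of all windows, 69.5% had fewer than Alkbh2 and 95.8% fewer than Msh6. These matches are descriptions of letters, and methylation was not measured.

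Over all genes tested, the profiles most like those of the 8 were found by the same measure over the 6 tumors. For Mgmt these were Psmb7, a proteasome subunit, and Scly, selenocysteine lyase, at root mean square differences of 0.045 and 0.049. For Mpg they were Tmem14c, a mitochondrial membrane protein, and Mrpl27, a mitochondrial ribosomal protein (0.073 and 0.079). For Alkbh2 they were Lad1 and Cdr2l (0.074 and 0.078), and for Alkbh3 Ssr4 and Mt-cox3 (0.080 and 0.084). For Xrcc1 they were Med21, a Mediator subunit, and Mrpl37 (0.038 and 0.044), and for Parp1 Slc38a9 and Pacs1 (0.038 and 0.043). For Msh6 they were Sfpq, an RNA-binding protein, and AC119015.1 (0.038 and 0.050), and for Pms2 AC131483.1 and Dnajc21, a ribosome-maturation cofactor (0.043 and 0.056). None of the 8 was among the 2 closest genes of another.

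The wider pathway lists were tested in the same fit, and 0 of their genes were called. Of the 6 genes of direct reversal 4 were higher and 2 lower in DATS tumors, with a median log2 difference of 0.22. Besides Mgmt and the AlkB genes, the list held 3 genes of the helicase complex that works with Alkbh3. Of these Ascc1 had 33.4 ± 1.07 FPKM in DATS and 28.5 ± 5.87 FPKM in vehicle tumors, and Ascc3, the helicase itself, 5.76 ± 0.998 FPKM in DATS and 6.20 ± 0.464 FPKM in vehicle tumors (SD, n = 3 each).

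Of the 11 DNA glycosylases, 9 passed the filter on low values, and 8 of these were higher and 1 lower in DATS tumors (median 0.17). In 2 of the 9 all DATS tumors lay above all vehicle tumors as deposited, against 6.72% of all genes. Overlap of the groups with equal totals was examined for the 8 repair genes only. Smug1, which removes uracil and its oxidised forms, was one of them, with 7.53, 7.71 and 6.998 FPKM in the DATS tumors against 6.19, 5.42 and 5.51 FPKM in the vehicle tumors. Its log2 difference of 0.33 ± 0.15 (SE) had a limma adjusted p of 0.819. Nthl1, which removes oxidised pyrimidines, was the other, with 18.4 ± 1.57 FPKM in DATS and 15.2 ± 1.83 FPKM in vehicle tumors (SD, n = 3 each). Mbd4, a thymine glycosylase of methylated CpG sites, had all DATS tumors below all vehicle tumors, as did 5.5% of all genes, with 2.03 ± 0.330 FPKM in DATS and 2.58 ± 0.130 FPKM in vehicle tumors. Neil2 and Neil3 were at 0.824 FPKM or less in every tumor.

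Of the 14 genes of base excision and single-strand break repair, 5 were higher and 9 lower in DATS tumors (median -0.024). Xrcc1 had the highest difference of this list. Lig3, the ligase that Xrcc1 holds, had 8.82 ± 0.439 FPKM in DATS and 10.6 ± 1.40 FPKM in vehicle tumors, and thus lay on the other side of 0 from Xrcc1 (log2 difference -0.24 ± 0.15, SE; limma adjusted p = 0.851). Parg, which takes poly(ADP-ribose) apart again, had the lowest difference of the list, with 8.64 ± 1.09 FPKM in DATS and 10.9 ± 1.27 FPKM in vehicle tumors (log2 difference -0.31 ± 0.16, SE; limma adjusted p = 0.819).

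Of the 8 core mismatch repair genes, 1 was higher and 7 were lower in DATS tumors, with a median of -0.20. Their summed level was 55.2, 44.6 and 54.6 FPKM in DATS tumors and 72.2, 56.3 and 52.6 FPKM in vehicle tumors, with overlapping groups. Msh3, the partner that steers recognition towards small loops, had all DATS tumors below all vehicle tumors, as did 5.5% of all genes. Its levels were 4.35, 3.59 and 4.43 FPKM in DATS and 6.14, 4.79 and 5.31 FPKM in vehicle tumors. Its log2 difference was -0.32 ± 0.18 (SE; limma adjusted p = 0.820). Pms1, the only one above 0, had 3.92 ± 0.486 FPKM in DATS and 3.89 ± 0.780 FPKM in vehicle tumors (SD, n = 3 each). Leaving out vehicle tumor 1 gave a list median of -0.057 and leaving out DATS tumor 1 one of -0.12, and the median stayed below 0 under each scaling and with each tumor left out. The summed level of the 12 proliferation genes had its highest value in the same tumor, vehicle tumor 1, and its part in these differences was not tested.

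Of the 12 replication factors that also serve mismatch repair, 3 were higher and 9 lower (median -0.082). Within them the DNA polymerase delta subunits Pold2 and Pold3 marked the ends, with 17.7 ± 2.52 FPKM in DATS and 15.4 ± 7.18 FPKM in vehicle tumors for Pold2. Pold3 had 6.83 ± 1.28 FPKM in DATS and 7.98 ± 1.0004 FPKM in vehicle tumors. Of 7 damage signalling genes, 3 were higher and 4 lower (median -0.020). The level of Cdkn1a, the cell cycle inhibitor p21, was 23.3, 95.3 and 82.4 FPKM in the DATS tumors, against 47.6, 35.2 and 44.4 FPKM in vehicle tumors. DATS tumors 2 and 3 were its highest and DATS tumor 1 its lowest, as for Mgmt (log2 difference 0.43 ± 0.52, SE; limma adjusted p = 0.899). Atm, the kinase of double-strand breaks, had 4.65 ± 0.357 FPKM in DATS and 5.89 ± 1.05 FPKM in vehicle tumors. In 2 of these 7 genes, Atm among them, all DATS tumors lay below all vehicle tumors, against 5.5% of all genes. Of the 12 proliferation genes 2 were higher and 10 lower (median -0.25). The ends of this list were Ccnb1, with 10.8 ± 3.65 FPKM in DATS and 10.6 ± 6.10 FPKM in vehicle tumors, and Tyms, with 2.81 ± 0.704 FPKM in DATS and 4.79 ± 2.94 FPKM in vehicle tumors (SD, n = 3 each). Mcm2, of the replicative helicase, had 18.6 ± 3.77 FPKM in DATS and 23.3 ± 8.79 FPKM in vehicle tumors. The proliferation median turned to 0.12 without vehicle tumor 1, and that of the replication factors to 0.10.

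**Figure D4:**
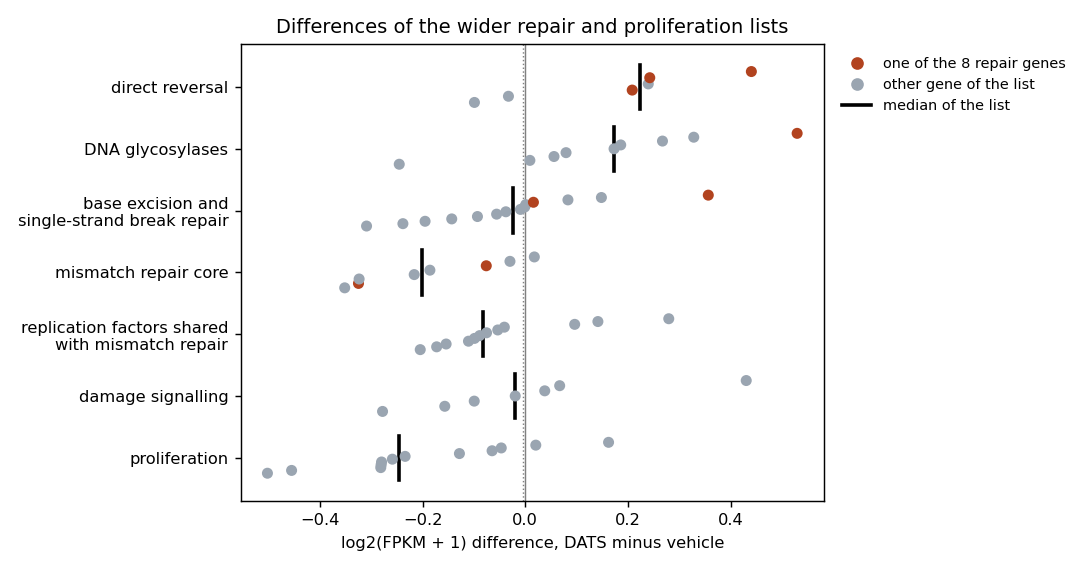
Differences between DATS and vehicle tumors on the log2(FPKM + 1) scale (horizontal axis) of the genes of 7 lists that passed the filter on low values, 1 point per gene, with the 8 repair genes in red and list medians as black bars. The solid line marks 0 and the dotted line the median of all genes tested, -0.0048. List medians run from -0.25 for proliferation to 0.22 for direct reversal, and no point was called.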

How the data were processed

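The authors deposited 1 table of FPKM per gene and tumor, keyed by rat Ensembl identifier and symbol (per the file headers). For the aligner, counter, build and annotation, versions and names were not given in the sources used here. Tumors were grouped by their treatment label. Within a gene the deposited FPKM values step by the worth of a single read. Whole reads, within a relative tolerance of 1e-06, were recovered on that basis for 100.0% of the 20891 genes above 0, and the steps between tumors also gave the implied gene lengths. A common divisor was put back for 763 genes, and one left unseen makes a read total slightly low. The recovery was run on simulated reads made with the recovered lengths, and the fit on simulated tumors with the spread of these data. Because they start from these data, such runs cannot check the assumptions made for the deposited table. No 2 tumors held identical values.

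Genes averaging at least 1 FPKM were tested on log2(FPKM + 1) with limma 3.58.1 in R 4.3.3 (two-sided, with an intensity trend and no covariate), with Benjamini-Hochberg adjustment over all 13631 genes and a threshold of 0.05. Differences are DATS minus vehicle. Other settings were a pseudocount of 0.1, no filter, equal totals, quantile normalization, limma-voom on recovered reads, a replicate block, removal of a length trend (genes of 200 bp or more) and leaving out each tumor. Named genes of a wider list were the 2 with the smallest p besides the 8, and the highest and lowest difference; 2 genes so picked are not reported here. Of the listed symbols Chek1, Pecam1, Jchain and Ier2 were not analysed here. The genes and lists were chosen with earlier results of these data known. Near-identical gene copies were not examined. Intervals of reads cover counting error only. Python 3.11.15, pandas 2.3.3 and matplotlib 3.10.9 made tables and plots.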

Additional observations from a re-analysis of the deposited data

How the results depend on the processing

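The count of called genes was 0 under each setting and with each tumor left out, with a lowest adjusted p of 0.138 (without vehicle tumor 2). The median of the 8 genes was 0.055 with equal totals, 0.055 to 0.234 over the settings with 6 tumors, and 0.11 to 0.353 with 1 tumor left out. With equal totals, where the median of all genes was -0.161, list medians were 0.053 for direct reversal, 0.0025 for glycosylases, -0.172 for base excision and -0.168 for damage signalling. With 1 tumor left out they ran from 0.11 to 0.261, from -0.0013 to 0.272, from -0.14 to -0.006 and from -0.143 to 0.026. Parp1 had -0.156 with equal totals and -0.036 with quantile normalization, and ran from -0.063 to 0.119 with 1 tumor left out; Msh6 ran from -0.181 to 0.109. The median of the mismatch repair core ran from -0.279 to -0.057 with 1 tumor left out. The 6 genes besides Parp1 and Msh6 kept their sign in every fit run. With the title number as a replicate block 0 genes were called and the median of the 8 was 0.225. The labels do not say whether these numbers pair the tumors. Deviations of same-numbered tumors correlated at 0.15, -0.023 and -0.12, and not every tumor correlated best with its own number. Because deviations sum to 0 within each group, these correlations depend on one another and cannot exclude a pairing. With 3 tumors a group, 0.569 was the median half-width of a 95% interval.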
